A study of Mus musculus with 16 samples.

Results

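Interferon-stimulated genes are genes whose transcription is switched on when a cell senses interferons, the secreted proteins that warn tissues of viruses and other danger. Type I interferons signal through JAK1 and TYK2 to a complex that holds STAT2 and IRF9 and binds the interferon-stimulated response element (ISRE), whereas interferon gamma signals through JAK1 and JAK2 to the gamma-activated site (GAS). In kidney, these genes are expressed by tubular cells, endothelium and resident or recruited leukocytes, and they are known to respond to tissue injury as well as to infection.

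The 37 genes described here were listed by symbol, and their rows were found through the Ensembl identifiers of the deposited table of 40472 genes. All 37 had a row, and all 37 had a mean of 10 or more counts in at least 1 group. In 23 of them that mean was already reached in an uninjured group, so the other 14 met it only through an injured group. This rule uses raw counts, and the libraries with the highest totals all belong to injured groups. Sequencing depth as well as level can therefore bring a gene past it. By the listed classes, 7 genes were of the interferon gamma type (Irf1, Gbp2, Gbp3, Gbp7, Igtp, Irgm1 and Iigp1), 23 of the type I kind, and 7 (Irf8, Ifitm1, Ifitm2, Ifitm3, Sp100, Cxcl10 and Samhd1) respond to both or were not assigned to either.

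Whole kidneys of male C57BL/6 mice aged 12 weeks were profiled by sequencing of polyadenylated RNA, in 4 groups of 4 libraries. NV was uninjured and given vehicle, NP was uninjured and given PJ34, an inhibitor of poly(ADP-ribose) polymerases, IRV had renal ischemia reperfusion (blood flow to the kidney stopped and restored) and vehicle, and IRP had ischemia reperfusion and PJ34. No genetic change is named for any group, and the design asks how the inhibitor acts on the long-term course after injury, without naming the day of collection. The labels do not tie each replicate to a separate animal, so the p-values reflect only how far these libraries differ among themselves, which may be technical in part.

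Library totals ran from 973812 to 6169748 counts and fell into 2 sets. A deep set of 6 libraries (all 4 of IRP and IRV replicates 3 and 4) held 4963638 to 6169748 counts, and a shallow set of 10 (all of NV and NP and IRV replicates 1 and 2) held 973812 to 1659983. The sets also differed in the summed level of olfactory, vomeronasal, taste and trace amine receptor genes. Kidney is not known to express most of these genes. Their sum was 240 to 500 CPM (counts scaled to a common library size) in deep libraries and 6215 to 11002 CPM in shallow ones. Levels below are CPM of library sizes scaled by the trimmed mean of M-values (TMM), and adjusted p is the Benjamini-Hochberg value of edgeR's quasi-likelihood test over 13614 genes with a threshold of 0.05. Markers of proximal tubule, the main cell type of kidney cortex, summed to 14853 to 17364 CPM in uninjured libraries.

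Most of the list was higher after injury, and no member was lower. Of the 33 members that passed the low-count filter, 22 were higher in IRV than in NV, against a background of 15.9% of all tested genes higher, and the median log2 fold change of the tested members was 1.10 against -0.03 for all genes. Under PJ34, 28 of 33 were higher in IRP than in NP, against a background of 19.6%, with a median of 1.25 against -0.01. Isg15, Usp18, Oas2 and Dhx58 did not pass the filter, which asks, in at least 4 libraries, for the level that 10 counts give at the median library size. Fitted without the filter, 28 of 37 members were higher under vehicle (background 7.72%) and 33 of 37 under PJ34 (background 14.3%). With library totals as the sole scaling, 29 and 31 of 33 were higher, against backgrounds of 42.0% and 51.5%. A gene that passes only because its injured libraries are high is more likely to differ, so these shares describe the tested members only. Counting all 37 members without a test, every IRV library lay above every NV library in 23 (background 15.1%), and every IRP library lay above every NP library in 21 (background 19.6%). In whole tissue, more cells that carry a transcript and more transcript per cell cannot be told apart.

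Counts are given by class, and a difference between classes was not tested. Of the interferon gamma type, 4 of 7 were higher in IRV than in NV (median log2 fold change 0.96), and 6 of 7 in IRP than in NP (median 0.94). Of the tested type I genes, 11 of 19 were higher under vehicle (median 0.93) and 15 of 19 under PJ34 (median 1.25). All 7 genes of the remaining class were higher in both comparisons, with medians of 1.41 and 1.79. The backgrounds were 15.9% of all tested genes under vehicle and 19.6% under PJ34. With the library set as a covariate, the 3 classes in this order had 3, 7 and 4 genes higher under vehicle (background 7.93%). Under PJ34 that fit left 0, 3 and 1 (background 2.52%). Both comparisons called 21 members, 1 (Rtp4) was called under vehicle only, 7 (Ifi27, Ifi35, Ifit1, Igtp, Irgm1, Oas1a and Trim25) under PJ34 only, and 4 (Ifi44, Iigp1, Rsad2 and Xaf1) in neither. The difference between the injury effects of the 2 treatments was tested directly and is given further on.

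**Figure D1:**
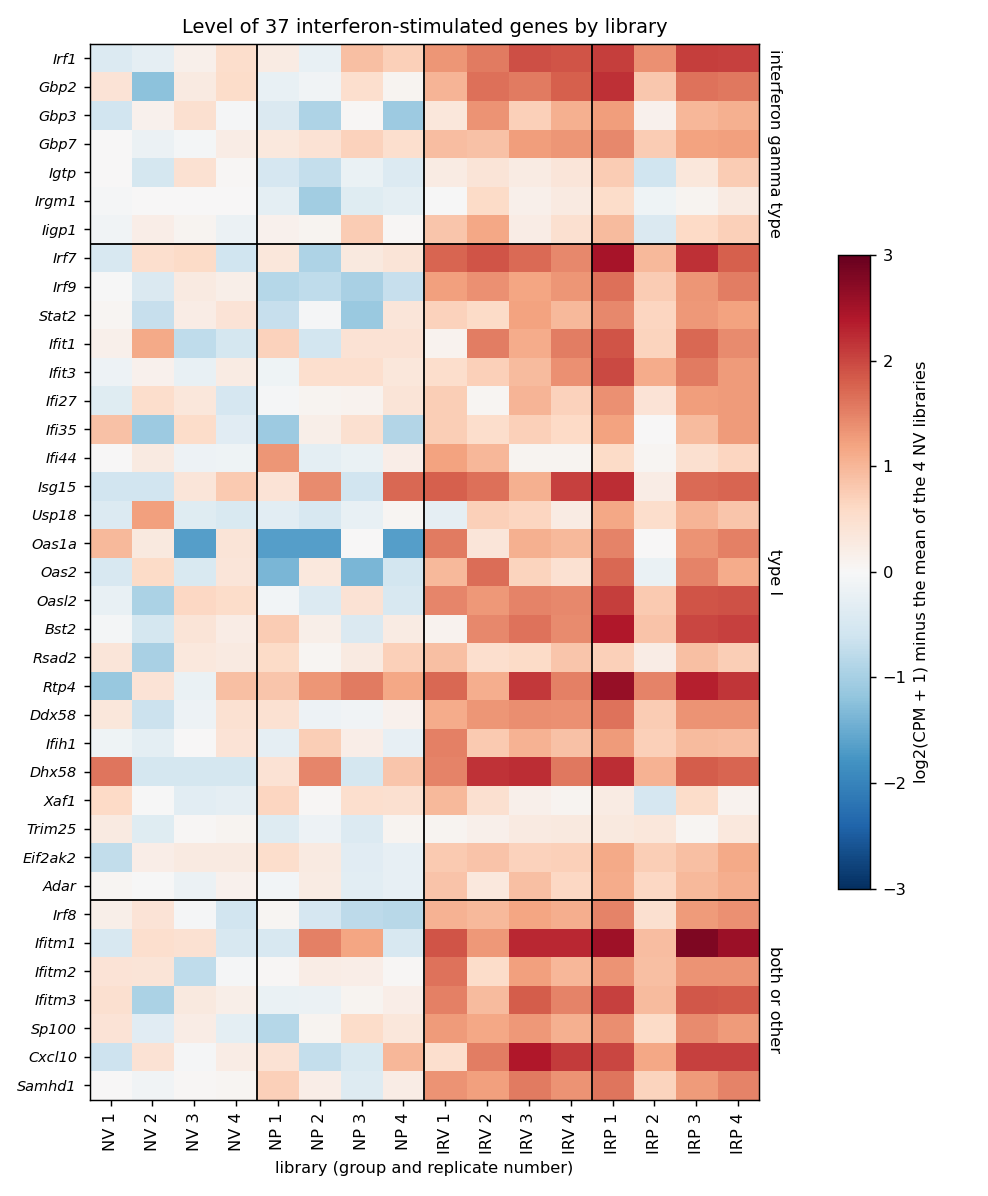
Level of each of the 37 genes (rows, grouped by class) in each of the 16 libraries (columns), as log2(CPM + 1) minus the mean of the 4 NV libraries; red is higher and blue lower. The IRV and IRP columns are red in most rows, IRP replicate 2 is paler than the other IRP columns, and the row of Trim25 changes little.

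Library set and injury overlap in this design, since every NP library is shallow and every IRP library is deep. IRV spans both sets, and with the set as a covariate 14 members were higher in IRV than in NV (background 7.93%, median 1.07): Irf1, Irf7, Irf9, Oasl2, Gbp7, Ifitm2, Ifitm3, Ddx58, Ifih1, Sp100, Eif2ak2, Samhd1, Ifi44 and Iigp1. That fit lost the vehicle calls of Irf8, Stat2, Ifit3, Bst2, Gbp2, Gbp3, Ifitm1, Rtp4, Adar and Cxcl10 (edgeR adjusted p = 0.0508 to 0.324). Within the shallow set alone, IRV replicates 1 and 2 against NV, 14 of 28 tested members were higher (background 6.49%, median 1.01). For IRP against NP the covariate left 4 members called, Irf7, Irf8, Irf9 and Oasl2 (background 2.52%), and the median was 1.10. That fit takes the effect of the set from 4 IRV libraries alone and carries it over to IRP and NP. The set and injury under PJ34 therefore cannot be told apart for any member, those 4 included.

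The bases before the start site of several members hold the elements to which interferon-activated factors bind. RefSeq promoter windows of GRCm38.p6, 300 bases from 250 before to 50 after a start, were matched by symbol for 31 of 37 members, in 38 windows; Ifi27, Usp18, Oas2, Rtp4, Dhx58 and Iigp1 were not matched. The core of the ISRE was searched as GAAA, any 2 bases and GAAA again, on both strands, and GAS as TTC, any 3 bases and GAA, which reads the same on both strands; matches may overlap. An ISRE core was present in 18 of 38 member windows (47.4%) and in 3.44% of the 32851 windows of the table, and a GAS match was present in 11 (28.9%) against 8.3%. Windows of interferon gamma type genes held an ISRE core in 5 of 8 and GAS in 3 of 8, and those of type I genes in 10 of 21 and 5 of 21.

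The 250 bases before the start are shown for 7 members that differ in which elements they carry, in GRCm38.p6 coordinates, 5′ to 3′ on the strand of the gene, with matches in capitals. Irf1 has a GAS match alone, Gbp7 and Igtp have both kinds, and Gbp2, Stat2, Ifit3 and Isg15 have ISRE cores alone.
Irf1, chr11:53769764-53770013, plus strand: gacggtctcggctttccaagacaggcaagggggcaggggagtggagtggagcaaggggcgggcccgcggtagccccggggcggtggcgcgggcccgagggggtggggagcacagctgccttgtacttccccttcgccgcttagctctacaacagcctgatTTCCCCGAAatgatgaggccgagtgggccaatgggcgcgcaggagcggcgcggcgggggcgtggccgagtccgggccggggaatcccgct
Gbp2, chr3:142620413-142620662, plus strand: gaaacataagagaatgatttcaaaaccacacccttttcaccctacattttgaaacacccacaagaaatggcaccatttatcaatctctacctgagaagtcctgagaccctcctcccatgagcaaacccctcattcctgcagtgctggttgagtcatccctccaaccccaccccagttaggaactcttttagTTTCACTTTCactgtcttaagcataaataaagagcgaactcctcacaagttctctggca
Gbp7, chr3:142530086-142530335, plus strand: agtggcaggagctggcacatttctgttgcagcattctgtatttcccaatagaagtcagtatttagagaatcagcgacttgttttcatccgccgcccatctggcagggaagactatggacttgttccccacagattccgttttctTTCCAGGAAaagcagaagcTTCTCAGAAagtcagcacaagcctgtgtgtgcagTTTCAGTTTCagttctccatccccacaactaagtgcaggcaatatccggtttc
Igtp, chr11:58199306-58199555, plus strand: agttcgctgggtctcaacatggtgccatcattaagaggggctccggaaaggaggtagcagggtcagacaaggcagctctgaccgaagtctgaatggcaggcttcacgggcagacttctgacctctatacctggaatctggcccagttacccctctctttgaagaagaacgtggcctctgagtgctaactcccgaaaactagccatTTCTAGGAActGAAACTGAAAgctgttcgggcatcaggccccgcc
Stat2, chr10:128270248-128270497, plus strand: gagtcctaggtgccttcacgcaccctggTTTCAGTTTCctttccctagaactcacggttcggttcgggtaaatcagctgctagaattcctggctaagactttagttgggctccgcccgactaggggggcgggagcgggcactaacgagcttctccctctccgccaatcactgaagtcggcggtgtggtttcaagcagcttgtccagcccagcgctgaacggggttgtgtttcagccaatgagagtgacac
Ifit3, chr19:34583279-34583528, plus strand: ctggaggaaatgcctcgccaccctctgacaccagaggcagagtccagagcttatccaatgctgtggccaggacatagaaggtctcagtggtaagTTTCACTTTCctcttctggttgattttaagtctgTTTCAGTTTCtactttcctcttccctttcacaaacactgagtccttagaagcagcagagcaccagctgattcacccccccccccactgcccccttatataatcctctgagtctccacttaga
Isg15, chr4:156200819-156201068, minus strand: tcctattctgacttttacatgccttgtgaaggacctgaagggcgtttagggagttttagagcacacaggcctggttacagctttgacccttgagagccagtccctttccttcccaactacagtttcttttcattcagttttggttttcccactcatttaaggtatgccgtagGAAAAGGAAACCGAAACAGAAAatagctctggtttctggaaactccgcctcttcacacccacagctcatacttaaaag
In Isg15, 3 overlapping ISRE cores lie between bases -78 and -57 from the start, and in Ifit3 the pair lies at -156 to -147 and -122 to -113. In Igtp the GAS match at -45 to -37 sits next to the ISRE core at -34 to -25. The Irf1 match lies at -90 to -82, with no ISRE core in either of its windows. Of the members higher in IRV than in NV, 16 of the 21 with a window had a match of either kind, and of those tested and not called, 6 of 9 did; a match is a description of letters and not evidence of binding.

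The 5 transcription factors of the list were higher after injury in both comparisons (backgrounds 15.9% and 19.6%). None of the 5 factors had overlapping groups (backgrounds 15.1% and 19.6% higher without overlap). They are Irf1, the factor induced by interferon gamma; Irf7, which amplifies type I interferon production; Irf8, a factor of the myeloid lineage; and Irf9 and Stat2, which are parts of the ISRE-binding complex.
Irf1, whose GAS match is shown above, measured 5.13, 5.74, 8.10 and 10.8 CPM in NV, 8.65, 5.95, 14.1 and 12.5 in NP, 19.5, 23.1, 30.4 and 29.0 in IRV and 33.3, 20.1, 33.6 and 32.6 in IRP. Every injured library was above every uninjured one. The log2 fold change was 1.81 ± 0.28 (SE), edgeR adjusted p = 0.000237 in IRV against NV and 1.56 ± 0.26 (SE), edgeR adjusted p = 0.000308 in IRP against NP.
Irf7 measured 3.42, 7.65, 8.10 and 3.09 CPM in NV, 6.73, 2.23, 6.52 and 7.03 in NP, 19.5, 21.9, 19.0 and 15.6 in IRV and 33, 11.1, 27.2 and 20.3 in IRP. Its lowest injured library, IRP replicate 2, was still above the highest uninjured library. Its log2 fold changes were 1.77 ± 0.40 (SE), edgeR adjusted p = 0.0037 under vehicle, and 2.06 ± 0.39 (SE), edgeR adjusted p = 0.0006 under PJ34.
Irf9 measured 9.40, 6.69, 11.7 and 10.8 CPM in NV, 4.80, 5.21, 4.35 and 5.47 in NP, 23.6, 26.1, 22.7 and 25.3 in IRV and 32, 16.7, 25.3 and 29.4 in IRP. All 4 NP libraries were below all 4 NV libraries, and the injured groups overlapped each other. Irf9 had the smallest adjusted p of the list under PJ34, with a log2 fold change of 2.36 ± 0.24 (SE), edgeR adjusted p = 7.82e-06, against 1.33 ± 0.22 (SE), edgeR adjusted p = 0.000406 under vehicle.
Irf8 changed by 1.12 ± 0.26 (SE), edgeR adjusted p = 0.00438 under vehicle and by 1.79 ± 0.27 (SE), edgeR adjusted p = 0.000146 under PJ34 on the log2 scale, and Stat2 by 0.90 ± 0.28 (SE), edgeR adjusted p = 0.0257 and by 1.46 ± 0.29 (SE), edgeR adjusted p = 0.000773. The vehicle call of Stat2 was lost without NV replicate 1, 2 or 3 or IRV replicate 3 or 4, with edgeR adjusted p up to 0.117.

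Both cytosolic RNA sensors that could be tested were higher in each comparison (backgrounds 15.9% and 19.6%). Ddx58 encodes RIG-I and Ifih1 encodes MDA5, the receptors that detect foreign RNA and switch on interferon genes. Ddx58 measured 25.6, 12.4, 18.0 and 27.8 CPM in NV, 27.9, 17.9, 18.5 and 21.9 in NP, 44.2, 51.7, 54.1 and 53.1 in IRV and 63.9, 34.6, 52.4 and 52.2 in IRP. Injured and uninjured libraries did not overlap, and the log2 fold changes were 1.27 ± 0.22 (SE), edgeR adjusted p = 0.000594 under vehicle and 1.25 ± 0.22 (SE), edgeR adjusted p = 0.0004 under PJ34. Ifih1 changed by 1.05 ± 0.23 (SE), edgeR adjusted p = 0.00322 and by 0.84 ± 0.22 (SE), edgeR adjusted p = 0.00595, although under PJ34 the highest NP library (32 CPM) lay above the lowest IRP library (31.7 CPM). Dhx58, the regulatory sensor LGP2, was at 0 counts in 3 of 4 NV libraries and was not tested.

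Effectors that bind or modify RNA include Ifit1 and Ifit3, which bind viral RNA, the oligoadenylate synthetases Oas1a, Oas2 and Oasl2, the kinase Eif2ak2 (PKR), which halts translation, and Adar, which edits adenosines in double-stranded RNA. Of the 6 tested, 4 were higher under vehicle (background 15.9%) and 6 under PJ34 (background 19.6%).
Oasl2 measured 8.55, 4.78, 16.2 and 15.4 CPM in NV, 9.61, 7.44, 14.1 and 7.03 in NP, 29.8, 26.7, 30.5 and 29.2 in IRV and 45.8, 18.3, 40.2 and 41.4 in IRP. IRV was tight and IRP wide, and neither overlapped its control group. The log2 fold change was 1.35 ± 0.33 (SE), edgeR adjusted p = 0.00566 under vehicle and 1.98 ± 0.33 (SE), edgeR adjusted p = 0.000297 under PJ34.
Ifit3, whose paired ISRE cores are shown above, measured 8.55, 10.5, 8.10 and 11.6 CPM in NV, 8.65, 14.1, 14.1 and 12.5 in NP, 14.4, 16.4, 19.6 and 26.5 in IRV and 40.7, 21.7, 30.4 and 24.7 in IRP. Its 2 deep IRV libraries were above its 2 shallow ones, and NP reached almost to the lowest IRV value. The log2 fold changes were 1.05 ± 0.27 (SE), edgeR adjusted p = 0.00727 and 1.25 ± 0.24 (SE), edgeR adjusted p = 0.00078. With the library set as a covariate they were 0.68 under vehicle (edgeR adjusted p = 0.234) and 0.69 under PJ34 (0.402).
Adar changed by 0.72 ± 0.18 (SE), edgeR adjusted p = 0.00608 under vehicle and 1.06 ± 0.17 (SE), edgeR adjusted p = 0.000241 under PJ34, and Eif2ak2 by 0.71 ± 0.21 (SE), edgeR adjusted p = 0.0163 and 0.91 ± 0.20 (SE), edgeR adjusted p = 0.00162. Without NV replicate 1, which was the lowest NV library for Eif2ak2 at 12.8 CPM, the vehicle call of Eif2ak2 was lost (edgeR adjusted p = 0.085).
Ifit1 had a log2 fold change of 1.22 ± 0.48 (SE), edgeR adjusted p = 0.0695 under vehicle and 1.35 ± 0.46 (SE), edgeR adjusted p = 0.0239 under PJ34. Its call under PJ34 was lost without NP replicate 2, 3 or 4 or IRP replicate 1 or 3 (edgeR adjusted p up to 0.082), and it was gained under vehicle without NV replicate 2 or IRV replicate 1 (down to 0.0163).
Oas1a was at 0 counts in 1 NV and 3 NP libraries. Over the 4 libraries of each group it had 174 counts in IRP and 2 in NP, a ratio per scaled library size of 14.9 with a 95% counting interval of 4.05 to 123.6, which covers counting error only. The edgeR adjusted p was 0.00565 for IRP against NP and 0.358 for IRV against NV.

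Among the membrane and nucleotide effectors, Ifitm2 and Ifitm3 held the highest levels of the list per kilobase. Ifitm1, Ifitm2 and Ifitm3 are membrane proteins that block the entry of viruses, Bst2 (tetherin) holds budding particles, Rsad2 (viperin) makes a chain-terminating nucleotide, and Samhd1 breaks down deoxynucleotides. Of these 6 effectors, 5 were higher in each comparison (backgrounds 15.9% and 19.6%), all but Rsad2.
Per kilobase of merged exons, Ifitm2 and Ifitm3 were the most abundant members in every group, at means of 25.5 and 16 CPM per kb in NV and 55.9 and 44.3 in IRV. Trim25 came next at 12.0 CPM per kb in NV and 13.6 in IRV.
Ifitm3 measured 14.5, 4.78, 12.6 and 11.6 CPM in NV, 8.65, 8.93, 10.9 and 11.7 in NP, 30.8, 20.7, 38.5 and 30.2 in IRV and 45.4, 20.5, 39.5 and 38.8 in IRP. No injured library fell below 20.5 CPM and no uninjured one passed 14.5. The log2 fold changes were 1.48 ± 0.30 (SE), edgeR adjusted p = 0.00175 under vehicle and 1.85 ± 0.30 (SE), edgeR adjusted p = 0.000241 under PJ34.
Samhd1 measured 24.8, 23.0, 25.2 and 25.5 CPM in NV, 41.3, 28.3, 18.5 and 28.9 in NP, 63.7, 59.0, 74.1 and 64.1 in IRV and 76.2, 39.9, 61.2 and 71.1 in IRP. IRV stood well clear of NV, while IRP replicate 2 lay below the highest NP library. The log2 fold change was 1.41 ± 0.21 (SE), edgeR adjusted p = 0.000191 under vehicle, the smallest adjusted p of the list there, and 1.08 ± 0.21 (SE), edgeR adjusted p = 0.000655 under PJ34.
Ifitm2 changed by 1.10 ± 0.24 (SE), edgeR adjusted p = 0.00279 and 1.17 ± 0.23 (SE), edgeR adjusted p = 0.000835, and Bst2 by 1.67 ± 0.52 (SE), edgeR adjusted p = 0.0253 and 2.03 ± 0.48 (SE), edgeR adjusted p = 0.00296. The vehicle call of Bst2 was lost without NV replicate 1, 2 or 4 or IRV replicate 3 or 4 (edgeR adjusted p up to 0.0871).
Ifitm1 was at 0 counts in 2 NV libraries, and over the groups it had 92 counts in IRV and 2 in NV, a ratio per scaled library size of 12.2 with a 95% counting interval of 3.27 to 101.9. Its edgeR adjusted p was 0.0216 under vehicle and 0.0343 under PJ34. These calls were lost without NV replicate 1 or 4 or IRV replicate 3 (up to 0.0714) and without NP replicate 1 or 4 or IRP replicate 1, 3 or 4 (up to 0.106).
Rsad2 measured 23.1, 8.61, 22.5 and 21.6 CPM in NV and 33.9, 25.5, 26.7 and 32.1 in IRV, with a log2 fold change of 0.62 ± 0.24 (SE), edgeR adjusted p = 0.0621. NV replicate 2 stood below the other 3 NV libraries, and the IRV libraries were all above NV although the test did not pass.

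**Figure D2:**
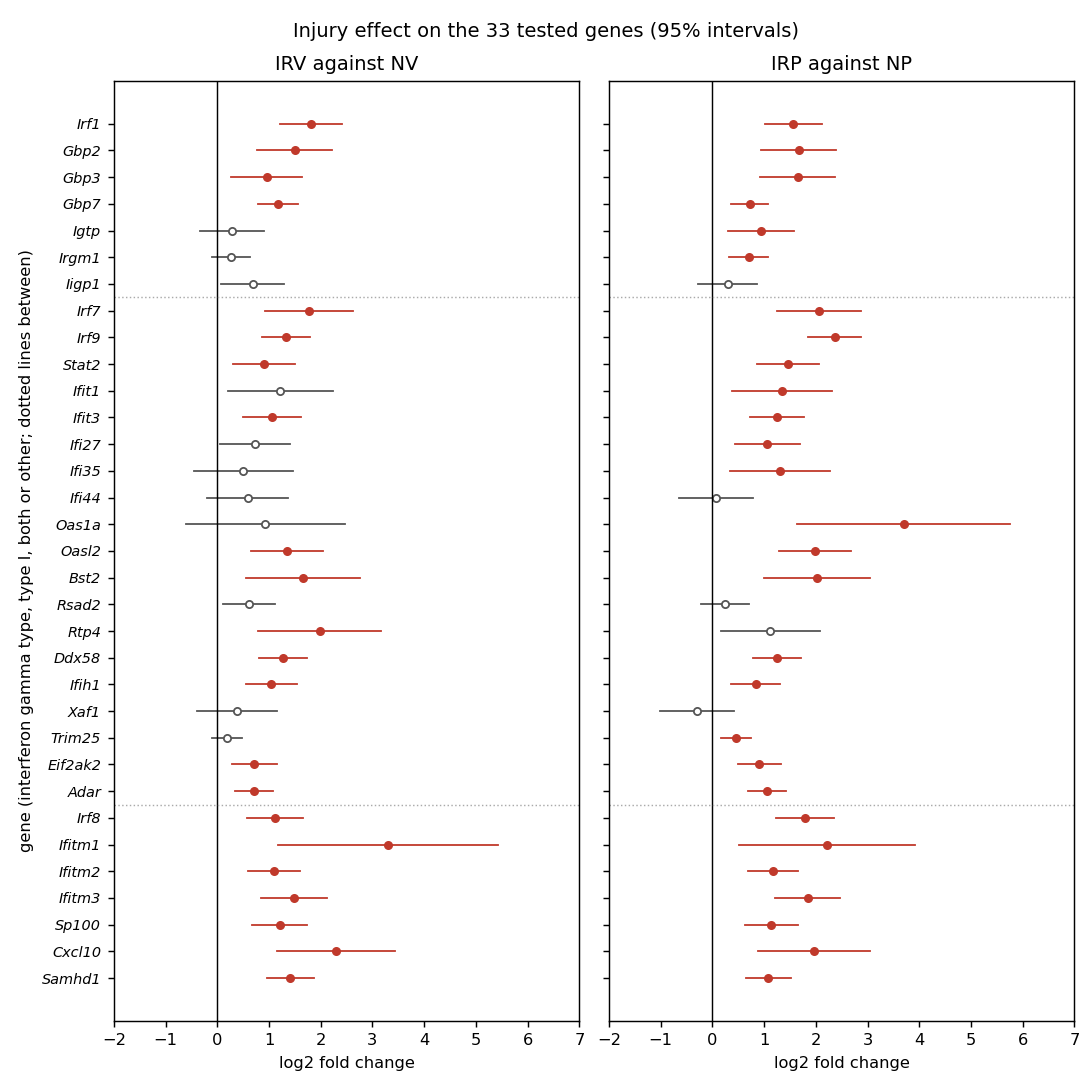
Log2 fold change of each of the 33 tested genes (points) with its 95% interval (lines), for IRV against NV (left) and IRP against NP (right); filled red points passed the edgeR test at an adjusted p under 0.05 and open points did not. All 33 points lie above 0 on the left and 32 of 33 on the right, where Xaf1 lies below 0, and the intervals of Oas1a and Ifitm1 are the widest.

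The guanylate-binding proteins Gbp2, Gbp3 and Gbp7, large GTPases that attack the vacuoles of intracellular microbes, were higher in both comparisons. The immunity-related GTPases Igtp, Irgm1 and Iigp1, which act on the same membranes, were not called under vehicle, and Igtp and Irgm1 were higher under PJ34.
Gbp2 measured 11.1, 2.87, 9.90 and 12.4 CPM in NV, 6.73, 7.44, 12.0 and 8.59 in NP, 17.5, 27.4, 25.8 and 30.3 in IRV and 40.2, 15.0, 27.3 and 26.0 in IRP. The injured libraries were all above the uninjured ones, and the log2 fold changes were 1.49 ± 0.34 (SE), edgeR adjusted p = 0.00411 and 1.67 ± 0.34 (SE), edgeR adjusted p = 0.00106.
Gbp7 measured 15.4, 13.4, 14.4 and 17.8 CPM in NV, 19.2, 20.8, 25.0 and 21.9 in NP, 29.8, 28.6, 37.3 and 39.8 in IRV and 43.1, 26.3, 36.3 and 36.7 in IRP. It was the only member in which every NP library lay above every NV library. The log2 fold changes were 1.18 ± 0.18 (SE), edgeR adjusted p = 0.000218 under vehicle and 0.72 ± 0.17 (SE), edgeR adjusted p = 0.00266 under PJ34. With the library set as a covariate they were 0.92 under vehicle (edgeR adjusted p = 0.0134) and 0.32 under PJ34 (0.603).
Gbp3 changed by 0.96 ± 0.32 (SE), edgeR adjusted p = 0.0367 and 1.65 ± 0.34 (SE), edgeR adjusted p = 0.00122. Its vehicle call was lost without NV replicate 1, 2 or 4 or IRV replicate 2, 3 or 4 (edgeR adjusted p up to 0.139).
Irgm1 measured 38.5, 39.2, 39.6 and 39.4 CPM in NV, 31.7, 18.6, 30.4 and 32 in NP, 39.1, 58.3, 43.6 and 47.1 in IRV and 57.4, 35.7, 41.6 and 47.1 in IRP. Relative to their mean, the NV libraries lay closer together than for any other member, all NP libraries lay below it, and IRP overlapped NV but not NP. The log2 fold change was 0.27 ± 0.18 (SE), edgeR adjusted p = 0.276 under vehicle and 0.70 ± 0.18 (SE), edgeR adjusted p = 0.0047 under PJ34.
Igtp, in which the GAS match and the ISRE core sit side by side, had log2 fold changes of 0.29 ± 0.29 (SE), edgeR adjusted p = 0.484 under vehicle and 0.94 ± 0.30 (SE), edgeR adjusted p = 0.0177 under PJ34. The PJ34 call was lost without NP replicate 1 or 2 or IRP replicate 1 or 4 (edgeR adjusted p up to 0.0741).
Iigp1 measured 29.1, 36.3, 33.3 and 27.8 CPM in NV and 56.5, 71.7, 36.9 and 44.6 in IRV. Its 2 shallow IRV libraries were above its 2 deep ones, and its log2 fold change was 0.69 ± 0.29 (SE), edgeR adjusted p = 0.0857, but with the library set as a covariate 1.04 with an edgeR adjusted p of 0.0333, and within the shallow set 1.04 with 0.00294.

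Among the other induced genes, Cxcl10 and Sp100 were higher in both comparisons. Cxcl10 encodes a chemokine that draws T cells and NK cells, and Sp100 is a component of PML nuclear bodies.
Cxcl10 measured 0.855, 2.87, 1.80 and 2.32 CPM in NV, 2.88, 0.744, 1.09 and 4.69 in NP, 3.08, 7.29, 14.2 and 11.3 in IRV and 10.5, 5.44, 10.9 and 10.9 in IRP. In IRV the 2 deep libraries, 14.2 and 11.3 CPM, were above the 2 shallow ones, 3.08 and 7.29 CPM. The log2 fold changes were 2.30 ± 0.54 (SE), edgeR adjusted p = 0.00461 under vehicle and 1.97 ± 0.51 (SE), edgeR adjusted p = 0.00543 under PJ34, and a fit with library set as covariate gave 1.50 (edgeR adjusted p = 0.141) and 0.79 (0.62).
Sp100 changed by 1.20 ± 0.25 (SE), edgeR adjusted p = 0.00221 and 1.14 ± 0.25 (SE), edgeR adjusted p = 0.00151.
Rtp4, a chaperone of receptors that limits viral replication, had log2 fold changes of 1.98 ± 0.56 (SE), edgeR adjusted p = 0.0148 under vehicle and 1.12 ± 0.45 (SE), edgeR adjusted p = 0.0555 under PJ34. The vehicle call was lost without NV replicate 3 or IRV replicate 3 (edgeR adjusted p up to 0.0679), and the call under PJ34 was gained without IRP replicate 2 (0.0395).
Ifi27 and Ifi35 had log2 fold changes of 0.73 and 0.51 under vehicle, neither called, and rose by 1.07 ± 0.30 (SE), edgeR adjusted p = 0.0087 and 1.31 ± 0.46 (SE), edgeR adjusted p = 0.0277 under PJ34. The call of Ifi35 was lost without NP replicate 1 or 4 or IRP replicate 1, 3 or 4 (edgeR adjusted p up to 0.115).
Ifi44 measured 10.3, 12.4, 9.0 and 9.27 CPM in NV, 26.9, 8.18, 8.70 and 11.7 in NP, 24.7, 21.3, 10.8 and 10.7 in IRV and 15.7, 10.7, 14.7 and 16.4 in IRP. Its 2 shallow IRV libraries were above every uninjured library but NP replicate 1, its 2 deep ones lay within the range of the uninjured groups, and the log2 fold change of 0.59 (edgeR adjusted p = 0.252) became 1.16 with the set as a covariate (0.0413).
Xaf1, a binding partner of the apoptosis inhibitor XIAP, measured 9.40, 5.74, 4.50 and 4.63 CPM in NV, 9.61, 5.95, 8.70 and 8.59 in NP, 12.3, 8.51, 6.53 and 6.27 in IRV and 7.13, 3.80, 8.96 and 6.39 in IRP. The 4 groups overlapped, and it was the only tested member with a negative log2 fold change under PJ34, -0.30 ± 0.34 (SE), edgeR adjusted p = 0.493.

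The ISG15 system was the least covered. Isg15 is a ubiquitin-like protein joined to others after interferon, Usp18 removes it and damps the type I receptor, and Trim25 is a ligase of RIG-I signalling.
Isg15 measured 0, 0, 0.900 and 1.54 CPM in NV, 0.961, 2.98, 0 and 3.90 in NP, 4.11, 3.65, 2.13 and 5.12 in IRV and 5.92, 0.725, 3.82 and 3.99 in IRP. IRV and NV did not overlap, but IRP replicate 2 was as low as uninjured libraries. It had 65 counts over the IRV libraries and 3 over NV, a ratio per scaled library size of 5.73 with a 95% counting interval of 1.88 to 28.5.
Usp18 measured 0.855, 4.78, 0.900 and 0.772 CPM in NV and 1.03, 3.04, 2.84 and 1.92 in IRV, and Oas2 measured 0.855, 2.87, 0.900 and 2.32 CPM in NV and 4.11, 7.29, 3.12 and 2.56 in IRV. IRV overlapped NV in both. Usp18 measured 0.961, 0.744, 1.09 and 1.56 CPM in NP, at 1 or 2 counts per library, and 4.47, 2.54, 3.96 and 3.35 in IRP. Every IRP library thus lay above every NP library for Usp18. For Oas2, with 0, 2.23, 0 and 0.781 CPM in NP and 7.61, 1.27, 6.31 and 4.63 in IRP, these groups overlapped.
Trim25 measured 82.1, 52.6, 69.3 and 71.8 CPM in NV, 51.9, 61.0, 51.1 and 71.8 in NP, 72.0, 75.4, 81.6 and 83.1 in IRV and 84.3, 86.1, 70.6 and 84.5 in IRP. The ratio of its highest to its lowest of the 16 libraries was the smallest of the list, with log2 fold changes of 0.19 ± 0.14 (SE), edgeR adjusted p = 0.32 under vehicle and 0.46 ± 0.13 (SE), edgeR adjusted p = 0.0111 under PJ34. The PJ34 call was lost without NP replicate 1 or 3 or IRP replicate 2 or 4 (edgeR adjusted p up to 0.0975).

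Low uninjured levels limit several of these folds. In each library, the members were set against the 1719 genes of the receptor families named above, most of which kidney is not known to express, per kilobase. In the shallow libraries 10 to 31 of 37 members lay above the 90th percentile of those genes, and in each of the 6 deep libraries all 37 did. Of the members, 9 (Ifit3, Ifi27, Ifitm2, Ifitm3, Igtp, Irgm1, Iigp1, Trim25 and Eif2ak2) were above that percentile in all 8 uninjured libraries, while 8 (Irf7, Irf8, Irf9, Usp18, Oas2, Dhx58, Xaf1 and Cxcl10) were above it in none. How much of an uninjured value is background of that kind was not tested.

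Receptor chains and several signal carriers of the pathway were higher as well, from lists of the other pathway genes, while the interferon genes themselves were barely counted. Of 6 receptor chains, 5 were higher in each comparison (backgrounds 15.9% and 19.6%), and with library set as covariate 4 and 1 were (backgrounds 7.93% and 2.52%). The interferon gamma receptor chain Ifngr1 rose from 15.2 ± 3.09 CPM (SD, n = 4) in NV to 54.2 ± 9.12 in IRV, a log2 fold change of 1.85 ± 0.22 (SE), edgeR adjusted p = 2.32e-05, and from 14.3 ± 2.96 in NP to 56.8 ± 14.4 in IRP, 1.97 ± 0.22, adjusted p = 1.25e-05. Ifngr2 rose by 1.3 and 1.45, the type I chains Ifnar1 by 1.04 and 0.92 and Ifnar2 by 0.77 and 1.04, and Il10rb by 0.80 and 0.75 on the log2 scale. Ifnlr1, the chain of the lambda receptor, had 0.57 and 0.64 and was not called. The kinases Jak1, Jak2 and Tyk2, which start the signal at the receptors, rose by 0.41, 0.65 and 0.80 under vehicle and by 0.45, 0.63 and 0.76 under PJ34, and Stat3, a factor of cytokine signalling, by 1.13 and 1.34, all on the log2 scale and all past the edgeR test. With the covariate the 3 kinases lost their calls in both comparisons (edgeR adjusted p = 0.0671 to 0.268 under vehicle and 0.384 to 0.624 under PJ34), while Stat3 passed at 0.00319 and 0.0341.
No ligand gene passed the filter. Ifng had 3 counts over the 4 NV libraries, 2 over NP, 4 over IRV and 8 over IRP. Summed over each group, Ifna1, Ifna2, Ifna4, Ifna5, Ifne and Ifnk had 0 to 9 counts. For Ifnb1, Ifnl2 and Ifnl3 no row was matched by symbol, so they could not be analysed.
Of 4 tested inhibitors, 1 was higher under vehicle (background 15.9%) and 2 under PJ34 (19.6%). With the covariate 1 was higher in each (backgrounds 7.93% and 2.52%). Socs3, which blocks JAK kinases after cytokine signals, rose by 3.21 ± 0.44 (SE) under vehicle, edgeR adjusted p = 8.17e-05, and by 2.72 ± 0.41 under PJ34, adjusted p = 0.000144.
Of 15 tested sensors, adaptors and further regulators, 9 were higher and 1 lower under vehicle (backgrounds 15.9% and 11.1%). Under PJ34 11 were higher (19.6%). With the covariate 6 were higher and 1 lower under vehicle (backgrounds 7.93% and 6.13%) and 3 higher under PJ34 (2.52%). A single lower gene of 15 is close to the shares of all genes lower. Irf5, a factor of macrophages and B cells, rose by 2.21 and 1.38 on the log2 scale, and Ciita, the master regulator of class II antigen presentation, by 1.86 and 2.61. Mavs, the adaptor of the RNA sensors, was the lower one, with a log2 fold change of -0.62 ± 0.17 (SE), edgeR adjusted p = 0.0115, under vehicle and -0.10 under PJ34.
Of a second list of 55 other interferon-stimulated genes, 26 of 42 tested genes were higher under vehicle (median 1.19, background 15.9%) and 30 of 42 under PJ34 (median 1.05, background 19.6%). With the library set as a covariate those counts were 21 and 5 (backgrounds 7.93% and 2.52%). Ly6e, a surface protein, rose from 117.6 ± 18.2 CPM (SD, n = 4) in NV to 440.8 ± 90.1 in IRV. Zc3hav1, the RNA-binding protein ZAP, rose by 1.34, Slfn5 by 1.19 and Rnf213 by 1.25 under vehicle, and Helz2 rose by 1.70 and Lgals3bp by 1.88 under PJ34, all on the log2 scale.

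Markers of most leukocyte types moved with the members, and those of neutrophils did not. The background of all tested genes was 15.9% higher and 11.1% lower under vehicle. Under PJ34 it was 19.6% higher and 24.0% lower. The 14 macrophage markers summed to 103 to 129 CPM in NV, 97.4 to 167 in NP, 676 to 1132 in IRV and 489 to 1329 in IRP, and 13 of 14 were higher in each comparison. The 16 T and NK cell markers summed to 12.6 to 25.8 CPM in NV, 23.9 to 32 in NP, 39.3 to 54.2 in IRV and 25.2 to 62.9 in IRP, and 3 of the 4 tested were higher in each comparison. Sums of the 8 B and plasma cell markers were 20.5 to 36, 19.2 to 29.8, 129 to 650 and 117 to 493 CPM in the same order, 3 of the 4 tested were higher in each comparison and 1 was lower under PJ34, and 2 of the 8 were at 0 in all NV libraries. Sums of the 9 dendritic cell markers were 23.1 to 35.5, 22.3 to 34.6, 60.2 to 92.2 and 35.9 to 84.8 CPM, and 3 of the 6 tested were higher in each comparison. Sums of the 6 neutrophil markers were 19.3 to 31.6, 14.1 to 32, 5.24 to 27.8 and 3.44 to 11.6 CPM; of the 2 tested, 0 were higher under vehicle, 1 was higher and 1 lower under PJ34, and 1 of the 6 was at 0 in all IRP libraries. No macrophage, T and NK cell or dendritic cell marker was at 0 throughout a group. Several members, Irf8 and Cxcl10 among them, are known to be expressed by leukocytes. Markers of some resident cells rose as well. The 8 fibroblast markers summed to 167 to 376 CPM in NV, 294 to 405 in NP, 1355 to 2136 in IRV and 969 to 2528 in IRP. Of these markers, 7 of 8 were higher in each comparison. All 5 podocyte markers were higher in each comparison, and of 6 endothelial markers 4 were higher under vehicle and 3 under PJ34. The part of any of these cell types in the rise of the list was not tested. Proximal tubule markers moved the other way, with 10 of 10 lower under vehicle and 8 of 10 lower under PJ34. Of 3 tested distal tubule markers, 2 were lower in each comparison. None of 4 loop of Henle markers was called, and of 6 collecting duct markers 1 was called, higher under PJ34.

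**Figure D3:**
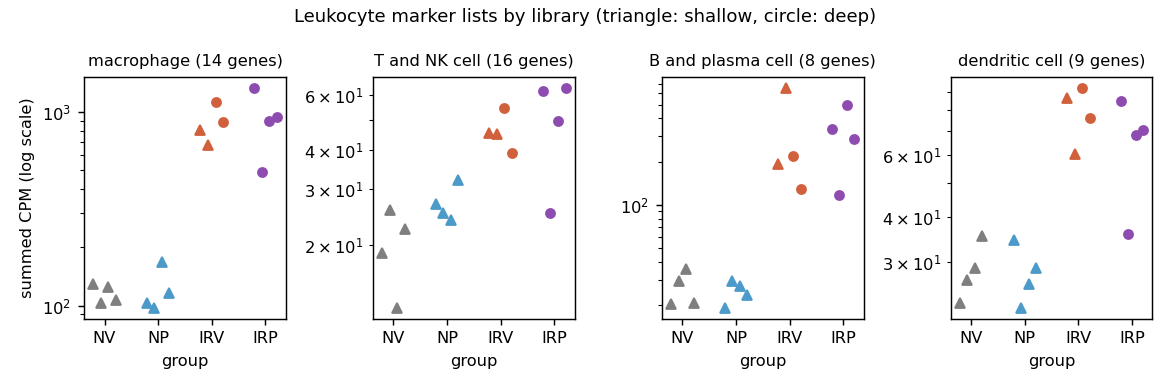
Summed CPM (log scale) of 4 of the 5 lists of leukocyte markers (neutrophils are not drawn) in each library, by group; triangles are shallow libraries and circles deep ones. Macrophage sums of 676 to 1132 in IRV lie above the 103 to 129 of NV, and IRP replicate 2 is the lowest IRP library in all 4 panels.

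No member passed the test between PJ34 and vehicle, in injured or uninjured kidney. In IRP against IRV, 0 of 33 members were higher and 0 lower with edgeR (background 0.0%), 1 member had an unadjusted p under 0.05, and 0 members were called by DESeq2 (background 0.0367% higher and 9.38% lower) or by limma-voom (0.0%). Over all 13614 genes edgeR called 0 in this comparison, 1832 had an unadjusted p under 0.05, and DESeq2 called 5 genes higher and 1277 lower. No member had all IRP libraries above all IRV libraries (background 1.51%), and the median log2 fold change of the tested members was 0.12 against 0.02 for all genes.
Ifit3 was the member with the unadjusted p under 0.05. Its values in IRP, 40.7, 21.7, 30.4 and 24.7 CPM, overlapped those in IRV, 14.4, 16.4, 19.6 and 26.5 CPM, and the log2 fold change was 0.54 ± 0.20 (SE), edgeR adjusted p = 0.177, with a 95% interval of 0.11 to 0.97. Without IRV replicate 4, a deep library and its highest in IRV, Ifit3 passed at 0.75 with an edgeR adjusted p of 0.0285 (background 0.0929%). Without both deep IRV libraries it passed at 0.90 with an edgeR adjusted p of 0.022 (background 1.17%). Every IRP library is deep, so these fits set deep libraries against mostly, and then only, shallow ones. Library set and PJ34 are mixed in the first fit and cannot be told apart in the second.
For 27 of the 33 members the 95% interval of IRP against IRV lay within a 2-fold difference either way. It reached 2-fold for Ifit1, Ifi35, Oas1a, Bst2, Ifitm1 and Rtp4. Irf1 had -0.26 to 0.61, Stat2 -0.23 to 0.74, Gbp2 -0.49 to 0.62, Ddx58 -0.40 to 0.38, Ifitm3 -0.25 to 0.72 and Samhd1 -0.46 to 0.30 on the log2 scale. Within the deep set alone, 4 IRP against 2 IRV libraries, 0 of 37 members were called (background 0.0%), with a median of 0.11.
In NP against NV, 0 members were called with edgeR (background 0.0%), as with DESeq2 (background 0.022% higher and 0.00735% lower) and limma-voom (0.0%), and 5 had an unadjusted p under 0.05. These were Irf9, Oas1a, Irgm1, Gbp7 and Rtp4. Irf9 and Irgm1 had every NP library below every NV library (background 1.15%), with log2 fold changes of -0.95 ± 0.30 (SE), edgeR adjusted p = 1.0 and -0.49 ± 0.20 (SE), edgeR adjusted p = 1.0, and Gbp7 had every NP library above, at 0.50 ± 0.21 (SE), edgeR adjusted p = 1.0 (background of genes whose NP libraries were all above, 1.28%). Oas1a had -2.54 and Rtp4 1.44. Over all genes, edgeR called 0 and 501 had an unadjusted p under 0.05.
The injury effect did not differ between treatments for any member by the interaction test (edgeR, 0 of 33, background 0.0%; 0 with DESeq2, background 0.00735% higher and 0.154% lower, and 0 with limma-voom, 0.0%), and Irf9 and Oas1a had an unadjusted p under 0.05. For Irf9 the difference was 1.04 ± 0.35 (SE), edgeR adjusted p = 0.326 on the log2 scale, 95% interval 0.30 to 1.77, beside the low NP values given above. The interval reached a 2-fold difference for 22 of 33 members, so at this spread a moderate difference was not detectable. The calls of Igtp, Irgm1, Ifi27 and the others under PJ34 only are therefore not shown to be particular to PJ34.

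**Figure D4:**
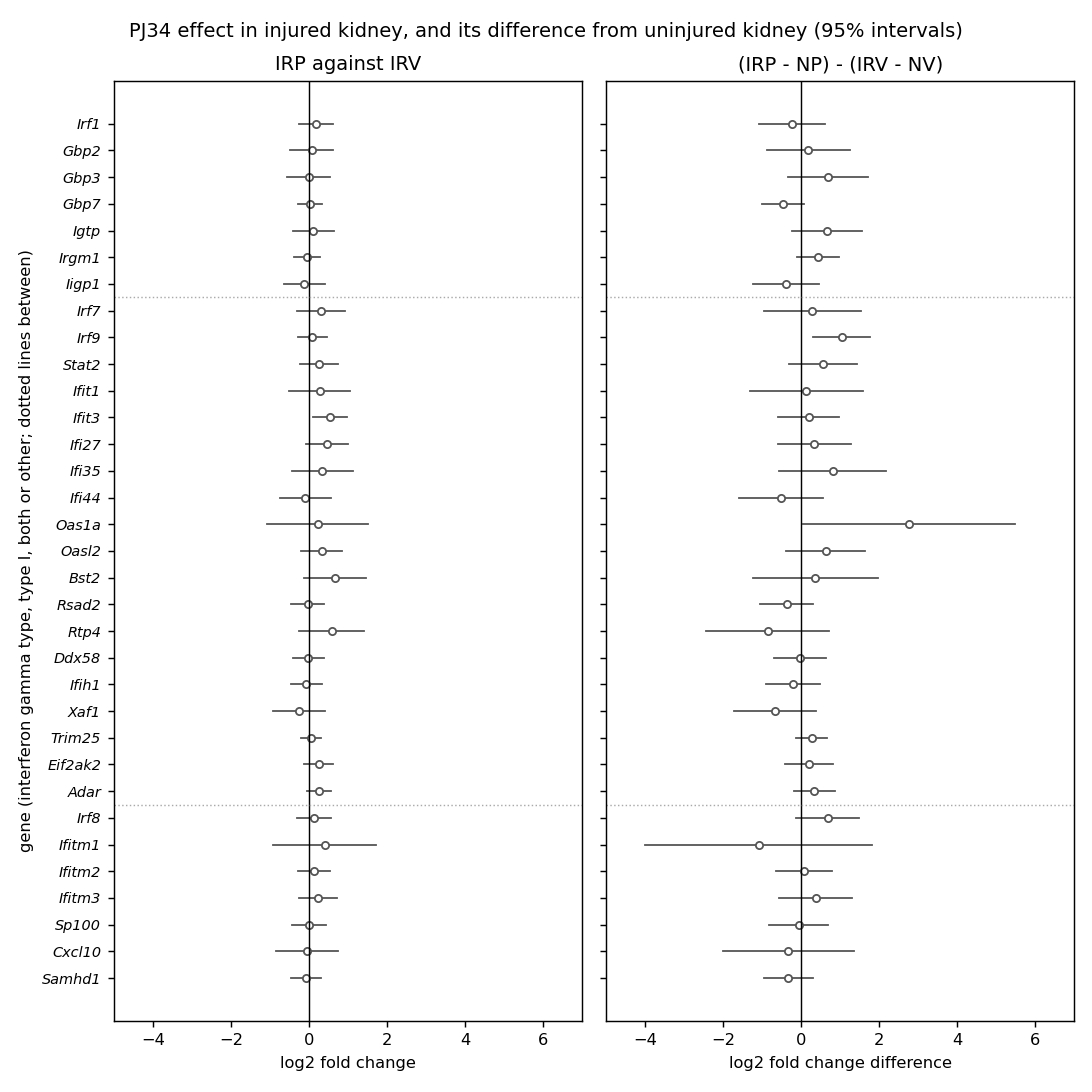
Log2 fold change of each of the 33 tested genes in IRP against IRV (left) and the difference between the 2 injury effects (right), with 95% intervals; open points did not pass the edgeR test. All points are open, and on the left only the interval of Ifit3 excludes 0.

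The members varied together from library to library in IRP. Averaged over all 37 members, log2(CPM + 1) relative to the NV mean was 0.97, 1.02, 1.13 and 1.08 in the IRV libraries and 1.53, 0.54, 1.33 and 1.32 in the IRP libraries, against -0.09 to 0.07 in NV and -0.03 to 0.07 in NP. The spread was 0.07 (SD, n = 4) in IRV and 0.44 in IRP. IRP replicate 2 was the lowest IRP library for 36 of 37 members, all but Trim25; it was the lowest for 74.0% of the 2671 genes higher in IRP than in NP and for 35.5% of all tested genes. The same library had the lowest macrophage sum of IRP, 489 CPM, and the highest proximal tubule sum, 13518 CPM against 6452 to 8818 in the others. Their part in its low member levels was not tested. By class, IRP replicate 2 had 0.28 for the interferon gamma type, within the range of the uninjured libraries, 0.53 for type I and 0.81 for the rest, both above every uninjured library.
IRP replicate 1 was the highest for 24 of 37 members. The IRV libraries held closer together, but 10 members had both deep IRV libraries above both shallow ones, and 6 (Irf7, Ifi44, Oas2, Iigp1, Xaf1 and Eif2ak2) the reverse; of all tested genes, 27.2% and 26.5% did so.

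**Figure D5:**
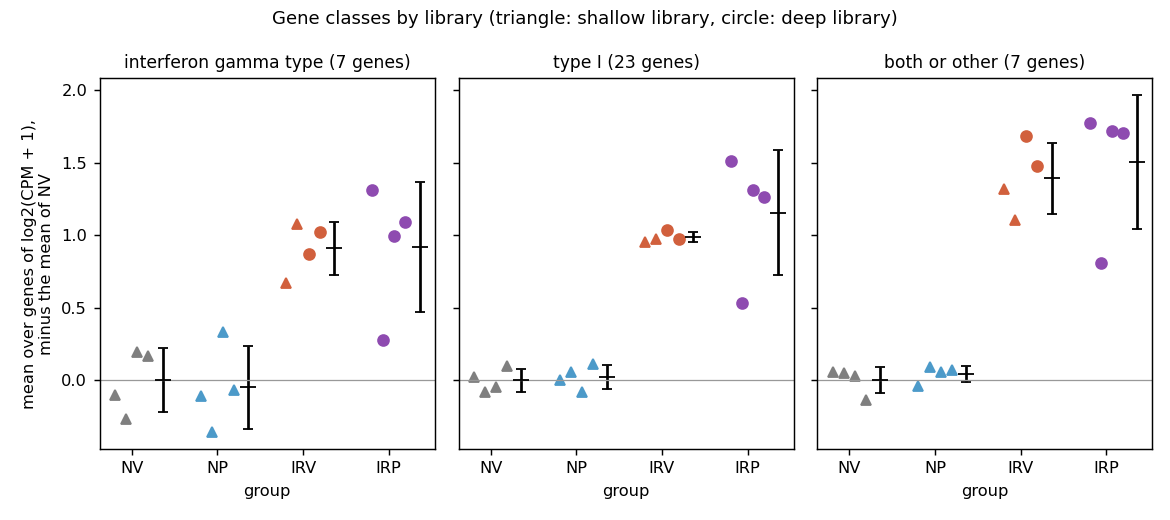
Mean over the genes of each class of log2(CPM + 1), minus the mean of NV, in each library (triangles shallow, circles deep), with the group mean ± SD beside the points. IRV and IRP lie above NV and NP in all 3 classes except for IRP replicate 2 in the interferon gamma type, at 0.28, below the highest NP library at 0.33.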

How the data were processed

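Polyadenylated RNA of 16 whole-kidney libraries was sequenced with a kit that keeps strand, per the labels' protocols. The deposited table holds estimated counts per gene as whole numbers for 40472 genes. The submitters' processing notes name FastQC 0.11.3, Trim Galore 0.6.6, Salmon 1.3.0, DESeq2 1.30.1 and the build GRCm39, without saying how each was used.

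Ensembl identifiers were matched to symbols for 40276 genes and not for 196. Counts were fitted with edgeR 4.0.16 in R 4.3.3 (quasi-likelihood test, TMM scaling, filterByExpr with a minimum count of 10) over all 4 groups, on 13614 genes, with Benjamini-Hochberg adjustment at 0.05 and intervals of 95%. DESeq2 1.42.0, limma 3.58.1 (voom), other scalings, no filter, the library set as a covariate, each set alone, and leaving out each library were alternatives; leaving out both deep IRV libraries was added after seeing the data. The test was checked on simulated counts. Over 24 pairs within groups, the lowest chi-square per degree of freedom was 1.769, so no pair agreed within sampling noise.

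All 37 members are named. From each pathway list the genes with the smallest p and all ligands and receptors are named, and Mavs was named after its value was seen. The members and lists were chosen with earlier results of these data known. 1 gene of the signalling lists is not reported here.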

Additional observations from a re-analysis of the deposited data

Results flagged for a closer look

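In 14 of 148 groups of 4 libraries (37 members in 4 groups), 1 library stood apart from the other 3 by Dixon's criterion, where chance gives about 1 in 20, or 7.4. IRP replicate 2 was the library in 5 of them and was low each time, at 20.1 CPM for Irf1, 9.60 for Ifi27, 2.17 for Oas1a, 30.8 for Ifitm2 and 5.44 for Cxcl10. IRP replicate 3 was low for Trim25, at 70.6 CPM. In NP, replicate 2 was low for Irf7 (2.23 CPM) and Irgm1 (18.6 CPM), and replicate 3 was high for Oas1a (2.17 CPM) and Iigp1 (54.4 CPM). In NV, replicate 2 was high for Usp18 (4.78 CPM) and low for Rsad2 (8.61 CPM), and replicate 1 was high for Dhx58 (3.42 CPM) and low for Eif2ak2 (12.8 CPM). The causes were not tested.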

How the results depend on the processing

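The direction of every called member held in each alternative run. For IRV against NV, 22 members were higher, and limma-voom called 13 of them (background 11.6%). The fit with library set as a covariate called 14 members (12 of the 22, and Ifi44 and Iigp1). The shallow libraries alone called 14, with 6 libraries and 28 members tested. Of the 28 higher in IRP than in NP, limma-voom called 17 in all (background 13.5%) and the covariate fit 4. For IRP against IRV, leaving out 1 library gave 0 to 1 members higher. Leaving out both deep IRV libraries gave 1, Ifit3, in a fit where library set and PJ34 cannot be told apart. The causes were not tested. Leaving out 1 library gave 17 to 23 members higher under vehicle and 24 to 29 under PJ34. The shares of all genes called in those fits are not given here, so these counts describe the members only. Without the low-count filter 28 and 33 of 37 were higher, and scaled by library totals alone 29 and 31 of 33, where the median of all genes moved to 0.49 and 0.57 on the log2 scale and all genes called became 5716 higher and 246 lower (2162 and 1511 with TMM) and 7012 and 1778 (2671 and 3264). Over all genes, the covariate fit called 1080 higher and 835 lower under vehicle and 343 and 107 under PJ34, the shallow libraries 880 and 927 under vehicle, limma-voom 3324 lower under vehicle, and no filter 600 lower under vehicle and 5805 higher and 10928 lower under PJ34.

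With the replicate number as a block, 22 and 27 members were higher, and 0 in the other comparisons. The share of all genes called in that fit is not given here. Same-numbered libraries had correlations of -0.133 to 0.259 (IRV and NV), -0.014 to 0.107 (IRP and NP), -0.226 to 0.17 (IRP and IRV) and -0.13 to 0.024 (NP and NV). These correlations cannot exclude that the numbers pair the libraries, and the labels do not state such a pairing. Depth limits the members near 0 counts in uninjured libraries.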
